A study of Mus musculus with 132 samples.

Results

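The genes described here are 35 members of the glycolytic pathway and of the cellular response to low oxygen, chosen by name from 25146 genes counted in 23 poly(A)-minus RNA-seq libraries of differentiating mouse embryonic stem cells. The list holds 6 genes of the hypoxia-inducible factor (HIF) pathway, 5 for glucose entry and the first 2 reactions, 5 for the phosphofructokinase step, 8 for the triose and lower steps, 6 for the fate of pyruvate and lactate, and 5 further HIF targets. All 35 were found in the count table. The rule is a list of symbols and sets no threshold on a measured value.

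Glycolysis splits glucose into pyruvate and yields ATP without oxygen. Glucose enters through the GLUT transporters, is trapped by hexokinases, and is committed to the pathway by phosphofructokinase. Pyruvate is then reduced to lactate by lactate dehydrogenase and exported by monocarboxylate transporters, or it is oxidised in mitochondria, a step that pyruvate dehydrogenase kinases restrain. When oxygen is low, the prolyl hydroxylases of the Egln family no longer mark HIF-alpha subunits for destruction by the VHL ligase. HIF-alpha with its partner ARNT then activates many glycolytic genes, often through sites with the core ACGTG. Pluripotent stem cells are known for a high rate of glycolysis.

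The cells were E14-TG2a mouse embryonic stem cells (mESCs), a 129-derived line, and all groups came from it. Wild-type cells were taken undifferentiated at day 0 (2 libraries, labelled as technical replicates), as Flk1+ mesoderm at day 4 (3 libraries, 1 from each of the clones C6.1, C8.1 and B9.3) and as CD41+ hematopoietic progenitor cells (HPCs) at day 7 (4 libraries from the same clones, with B9.3 sampled again as B9.3-2). P1-CTCF-KO and P2-CTCF-KO are lines derived from single cells in which CRISPR/Cas9 removed the CTCF-binding motif beside the distal (P1) or the proximal (P2) promoter of Runx1, the gene of a transcription factor needed for blood formation. P1-CTCF-KO had 3 mesoderm and 3 HPC libraries (clones E7.1, E7.2 and E9.1), and P2-CTCF-KO had 3 mesoderm libraries (D10.1, D2.1 and E9.1) and 5 HPC libraries (the same clones, with D10.1-2 and D2.1-2). All differentiated cells had received BMP4, then bFGF with Activin A, and then SCF with VEGF for the step to HPCs, and were sorted by surface marker, so a stage differs from the one before in time, medium and sort.

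Poly(A)-minus RNA was counted over exons and introns, so the values follow mainly unspliced, nascent transcripts and not the stored mRNA or the protein. Libraries held 20532578 to 24283287 counts in undifferentiated cells, 18233679 to 24406998 in mesoderm and 7805102 to 13513677 in HPCs, of which 68.09 to 76.34%, 88.79 to 90.98% and 87.81 to 89.15% lay in ribosomal RNA or multi-locus entries. The 35 genes together held 30305 and 56106 counts in the undifferentiated libraries, 973 to 3868 in mesoderm and 476 to 1538 in HPCs, so precision was lowest in HPCs. Depletion of ribosomal RNA is named in the methods for the undifferentiated cells and not for the sorted ones, so this stage also differs from the others in library preparation. In the wild-type libraries 7 of 8 tested pluripotency markers fell into mesoderm, 6 of 6 tested mesoderm markers rose there and fell again into HPCs, and 7 of 7 tested erythroid markers rose in HPCs, where their summed level was 64.1 to 154 counts-per-million (CPM, on TMM-scaled library sizes) against at most 0.696 in mesoderm. Of the HPC libraries 3 stood apart: summed cardiac and smooth muscle markers were 15.03 CPM in wild-type B9.3, 12.1 in P2-CTCF-KO D10.1 and 15.2 in P2-CTCF-KO D2.1, against 0.481 to 5.45 in the other 9. Summed mesoderm markers were also highest in these 3, at 13.23, 10.57 and 20.45 CPM in the same order, against 2.86 to 8.11 in the other 9. P2-CTCF-KO D2.1 also had the highest endothelial sum of the HPC libraries (68.9 CPM against 10.7 to 28.3) and the lowest erythroid sum (29.7 CPM). Its pluripotency sum was the highest as well (2.23 CPM against at most 0.978).

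The promoters of 5 members are shown. Hk1, Hk2, Pfkfb4 and Ldha changed from mesoderm to HPCs in all 3 genotypes, and Pgk1 fell from undifferentiated cells to mesoderm. These 5 promoters also differ in whether they hold the letters ACGTG. Each line gives the 150 bases before the gene start of the count table, on the gene's own strand, read 5′ to 3′ from the NCBIM37 (mm9) genome, with every ACGTG or its reverse complement CACGT in capitals. Hk2 (chr6:82724449-82724598, minus strand), Ldha (chr7:54101023-54101172, plus strand) and Pgk1 (chrX:103382288-103382437, plus strand) held ACGTG on either strand. Hk1 (chr10:61842657-61842806, minus strand) and Pfkfb4 (chr9:108893796-108893945, plus strand) did not.
Hk2: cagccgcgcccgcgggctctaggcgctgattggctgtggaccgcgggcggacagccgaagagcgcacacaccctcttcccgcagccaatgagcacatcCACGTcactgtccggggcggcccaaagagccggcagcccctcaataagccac
Ldha: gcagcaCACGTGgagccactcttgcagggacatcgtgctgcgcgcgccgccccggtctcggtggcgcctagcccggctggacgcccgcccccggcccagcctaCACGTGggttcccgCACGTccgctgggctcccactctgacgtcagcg
Pgk1: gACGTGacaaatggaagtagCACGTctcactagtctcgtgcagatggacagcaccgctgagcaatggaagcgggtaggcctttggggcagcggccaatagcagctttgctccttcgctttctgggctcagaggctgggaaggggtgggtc
Hk1: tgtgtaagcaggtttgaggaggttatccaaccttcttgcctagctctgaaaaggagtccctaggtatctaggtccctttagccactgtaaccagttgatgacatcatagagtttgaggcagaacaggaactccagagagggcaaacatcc
Pfkfb4: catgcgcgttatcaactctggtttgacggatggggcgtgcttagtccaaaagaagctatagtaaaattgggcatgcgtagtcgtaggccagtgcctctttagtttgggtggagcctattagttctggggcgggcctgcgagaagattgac
In windows from 250 bases before to 50 bases after the gene start, 18 of the 35 members (51.4%) held ACGTG on either strand, against 5166 of 24961 genes with a single span (20.7%). The list holds HIF targets by choice. The 24961 genes were taken whether expressed or not and were not matched to the members for base content. The palindrome CACGTG counts on both strands, so the 5 matches at Ldha, encoding the lactate dehydrogenase A subunit, stand at 3 places. Of the 9 members that fell from mesoderm to HPCs in all 3 genotypes, 4 held ACGTG (Egln1, Hk2, Gapdh and Ldha). The other 5 did not (Pfkl, Tpi1, Eno1, Pkm and Slc16a3). Neither of the 2 that rose in all 3 held it, 5 of the 7 that passed in none did, and so did Pdk3, which rose in the wild type. The printed promoters do not stand for all members of a direction. The search covers ACGTG only and not GCGTG, which stands in the printed Pfkfb4 promoter. No binding of HIF was measured.

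Between undifferentiated cells and mesoderm most of the glycolytic members that passed the test fell. Of 33 tested members, 2 rose and 15 fell, against 10.7% and 13.7% of all 12899 genes tested (24.4% in all). Passing the test means a Benjamini-Hochberg adjusted p under 0.05 in the quasi-likelihood test of edgeR and a change of more than 2-fold. The median log2 fold change was -0.82 over the members and -0.18 over all genes tested. Of all genes called, 44% were higher by edgeR and 54.4% by DESeq2. None of the 6 HIF pathway genes passed: their log2 fold changes ran from -0.35 for Epas1, encoding HIF-2-alpha, to 0.78 for Egln1, the main oxygen-sensing prolyl hydroxylase. Every one of the 5 genes of glucose entry and hexose phosphorylation changed, 3 of 5 at the phosphofructokinase step fell and 1 rose, and 5 of 8 in the triose and lower steps fell.

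Slc2a3, encoding the high-affinity glucose transporter GLUT3, had 39.3 and 37.6 CPM in the undifferentiated libraries and 7.14, 6.68 and 13.8 CPM in mesoderm (log2 fold change -2.06 ± 0.50 SE, adjusted p = 0.011 by edgeR). Slc2a1, encoding the widely expressed transporter GLUT1, went from 33.3 in both to 11.8, 8.38 and 18.2 CPM (-1.38 ± 0.44, adjusted p = 0.037 by edgeR). In neither gene did the 2 groups overlap. The steepest falls were in Bnip3, a HIF target that acts in removal of mitochondria, and in 3 enzymes of the lower pathway. Bnip3 was at 3.43 and 3.04 CPM in undifferentiated cells and at 0.522, 0.243 and 0.36 CPM in mesoderm (-3.02 ± 0.39, adjusted p = 0.00036 by edgeR). Pgk1, phosphoglycerate kinase, was at 5.28 and 5.49 CPM against 1.33, 0.972 and 0.66 CPM (-2.44 ± 0.31, adjusted p = 0.00033 by edgeR). Eno1, an enolase, was at 18.3 and 15.5 CPM against 2.78, 2.55 and 4.5 CPM (-2.35 ± 0.27, adjusted p = 2e-04 by edgeR). For these 3 genes every undifferentiated value stood above every mesoderm value. Pgam1, phosphoglycerate mutase, fell by 2.34 and Gapdh by 1.71 on the log2 scale. The other 8 members that fell were Hk2, Gpi1, Pfkl, Pfkp, Pfkfb3, Pkm, Ldhb and Pdk1, with log2 fold changes from -1.03 for Pfkfb3 to -2.16 for Ldhb.

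The 2 members that rose were Hk1 and Pfkfb4. Hk1, the housekeeping hexokinase, went from 0.655 and 0.687 CPM to 2.15, 1.46 and 0.96 CPM (1.18 ± 0.32, adjusted p = 0.019 by edgeR). Pfkfb4, a bifunctional enzyme that sets the level of the phosphofructokinase activator fructose-2,6-bisphosphate, went from 0.202 and 0.255 CPM to 0.522, 0.972 and 1.38 CPM (2.06 ± 0.46, adjusted p = 0.007 by edgeR). Both stood higher in every mesoderm library than in either undifferentiated one.

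This comparison depends on treating the technical pair of undifferentiated libraries as replicates. That holds for the whole table: with the pair summed or 1 of it left out, the share of all genes that passed fell too. Without mesoderm B9.3 it was 19.8%, against 24.4% with all libraries. With the pair summed to 1 library, 5 members passed (Gapdh, Pgk1, Pgam1, Eno1 and Bnip3, all lower), and leaving out undifferentiated library 1, undifferentiated library 2 or mesoderm B9.3 left 4, 6 and 11. It also rests on the scaling: the TMM factors of the undifferentiated libraries were 7.56 and 4.97, against 0.381 to 1.19 in the other 21, whose share of ribosomal RNA was higher. Over all genes the log2 fold change also moved with the length of the gene, from a median of -0.57 for spans under 10 kb to 0.53 for spans over 100 kb, and its part in the members' values was not tested.

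**Figure D1:**
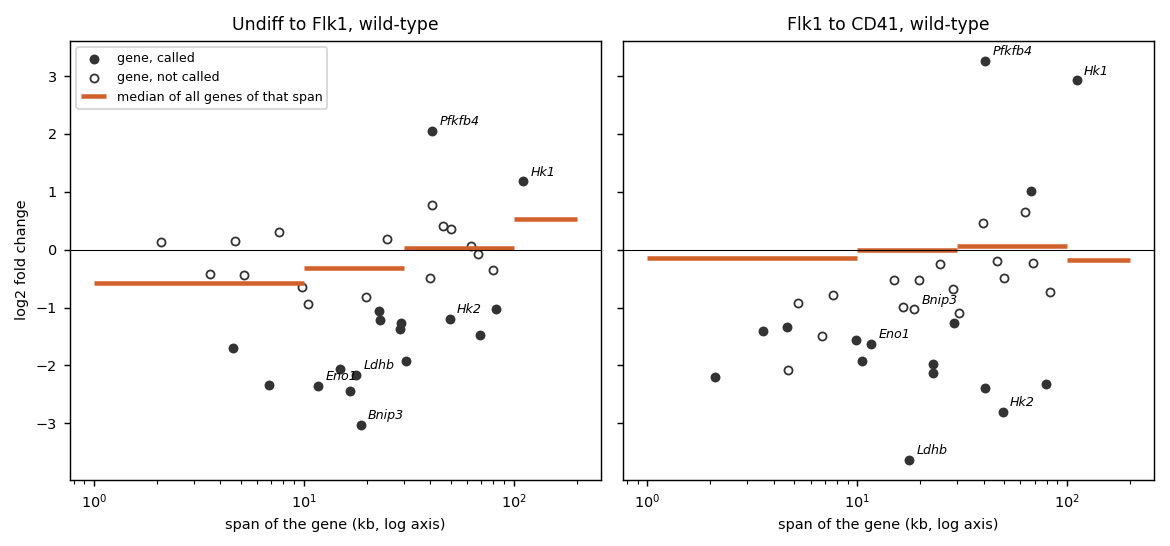
Log2 fold change (vertical axis) against the span of each gene in kb (horizontal log axis) for the 33 tested members, from undifferentiated cells to Flk1+ mesoderm (left) and from mesoderm to CD41+ HPCs (right) in wild-type cells. Filled points passed the test, open points did not, and the orange lines are medians over all genes tested with spans under 10, 10 to 30, 30 to 100 and over 100 kb. On the left the medians climb from -0.57 to 0.53 with span, on the right they lie between -0.18 and 0.06.

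From mesoderm to HPCs in wild-type cells Hk1 rose and Hk2 fell, Pfkfb4 rose, and most other members that passed the test fell. Of the same 33 tested members, 3 rose and 13 fell, against 10.8% and 12.5% of 12899 genes (23.3% in all). The median log2 fold change was -1.03 over the members and -0.01 over all genes. In these bulk samples a lower share of cells of one type and less RNA per cell cannot be told apart. Without HPC library B9.3, the one with raised cardiac and smooth muscle markers, 3 rose and 16 fell, and 24.5% of all genes passed. Span had little relation to this change over all genes in the wild type, with medians between -0.18 and 0.06.

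Hk1 had 2.15, 1.46 and 0.96 CPM in the 3 wild-type mesoderm libraries and 12.1, 13.6, 11.2 and 9.99 CPM in the 4 HPC libraries. Hk2, the inducible hexokinase that HIF is known to activate, had 7.83, 10.9 and 9.84 CPM in mesoderm and 2.49, 1.15, 0.986 and 0.75 CPM in HPCs. The groups did not overlap for either gene, and the genes moved in opposite directions: Hk1 by 2.93 ± 0.28 (SE, adjusted p = 3.4e-05) and Hk2 by -2.80 ± 0.33 (adjusted p = 0.00012) on the log2 scale by edgeR. Per kb of gene span, Hk1 made up 1.3 and 1.4% of the 2 hexokinase levels in undifferentiated cells, 4.2 to 10.9% in wild-type mesoderm and 68.4 to 85.6% in wild-type HPCs. The sum of both per kb was 0.444 ± 0.006 CPM per kb (SD, n = 2) in undifferentiated cells, 0.207 ± 0.028 (SD, n = 3) in mesoderm and 0.133 ± 0.024 (SD, n = 4) in HPCs. All per-kb values of Hk1 use the count table's span of 111.1 kb. Another start in the GENCODE annotation (61802925) lies well inside that span, and which start was used was not tested. A shorter span would raise the shares of Hk1 and the sums, and the sums most in HPCs.

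Pfkfb4 had 0.522, 0.972 and 1.38 CPM in mesoderm and 5.67, 10.9, 11.9 and 8.5 CPM in HPCs (3.27 ± 0.37, adjusted p = 9.4e-05 by edgeR). Its paralogue Pfkfb3 had 1.8, 1.09 and 1.74 CPM in mesoderm and 1.46, 0.64, 0.789 and 0.833 CPM in HPCs, where the groups overlapped (-0.74 ± 0.33, adjusted p = 0.12 by edgeR). Per kb, Pfkfb4 made up 11.4 and 13.7% of the pair in undifferentiated cells, 37.0 to 64.3% in wild-type mesoderm and 88.7 to 97.2% in wild-type HPCs. These shares use the count table's span of 82.5 kb for Pfkfb3, while its start furthest upstream in the GENCODE annotation (11423728) lies well inside that span. A shorter span would raise Pfkfb3 per kb and lower the shares of Pfkfb4. The third riser was Pdk3, one of the kinases that switch off pyruvate dehydrogenase, from 1.33, 1.94 and 1.92 CPM to 3.26, 4.1, 3.65 and 3 CPM (1.02 ± 0.25, adjusted p = 0.0098 by edgeR). Its groups did not overlap either, but its change lies at the 2-fold limit, and it fell below that limit under DESeq2 and under RLE size factors.

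**Figure D2:**
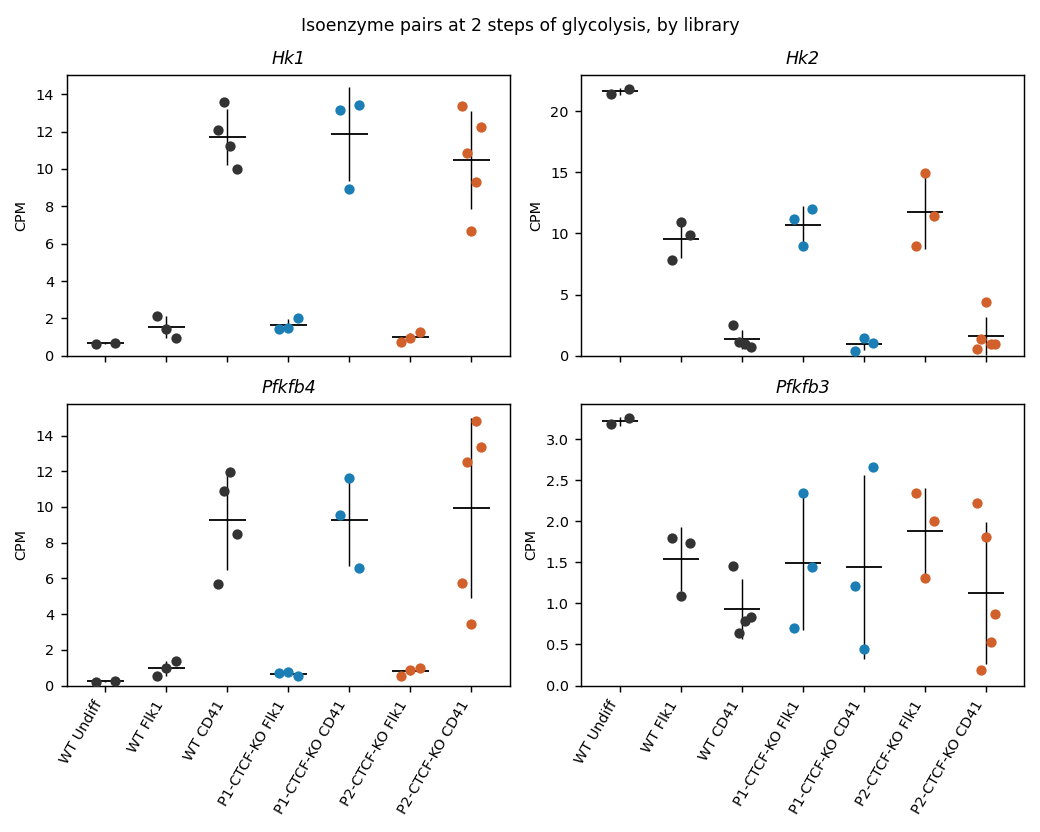
Level in counts-per-million (CPM, vertical axis, from 0) of Hk1, Hk2, Pfkfb4 and Pfkfb3 in each of the 23 libraries, by group (horizontal axis; WT, wild-type). Points are libraries, horizontal bars are group means and vertical lines are 1 SD. All 12 HPC libraries lie above all 9 mesoderm libraries for Hk1 (6.7 to 13.57 against 0.76 to 2.15 CPM) and Pfkfb4 (3.42 to 14.79 against 0.52 to 1.38), and all lie below for Hk2 (0.41 to 4.4 against 7.83 to 14.91).

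In the lower pathway, 4 of 8 members fell and none rose. Pkm, pyruvate kinase, had 21.1, 18.1 and 28.5 CPM in mesoderm and 4.9, 2.94, 5.33 and 9.66 CPM in HPCs (-1.97 ± 0.32, adjusted p = 0.00098 by edgeR). Eno1 had 2.78, 2.55 and 4.5 CPM against 1.2, 0.768, 1.18 and 1.08 CPM (-1.63 ± 0.28, adjusted p = 0.0012 by edgeR). Gapdh and Tpi1 fell by 1.34 and 1.40 on the log2 scale. For all 4 genes the lowest mesoderm value stood above the highest HPC value. Many copies of these genes made from spliced mRNA are scattered over the mouse genome, above all for Gapdh, so their counts are uncertain. Aldoa, an aldolase, passed the adjusted p (0.0091 by edgeR) with a change just under 2-fold (-0.93 ± 0.22).

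Of the genes for the fate of pyruvate and lactate, Ldha fell from 5.69, 6.68 and 6.96 to 2.58, 1.54, 2.66 and 1.83 CPM (-1.57 ± 0.23, adjusted p = 0.00046 by edgeR). Slc16a3, the lactate exporter MCT4, fell from 2.38, 2.79 and 4.2 to 0.945, 0.256, 0.888 and 1.08 CPM (-1.93 ± 0.36, adjusted p = 0.002 by edgeR). Neither pair of groups overlapped. Ldhb, the other lactate dehydrogenase subunit of most tissues, had 14 counts over the 3 mesoderm libraries and 1 over the 4 HPC libraries, a ratio of levels of 13.8 with an exact 95% interval of 2.1 to 585 that covers counting error only. Slc16a1, the transporter MCT1, did not pass (-0.52 ± 0.27, adjusted p = 0.19 by edgeR).

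At the upper end of the pathway, Gpi1 (glucose-6-phosphate isomerase) had a log2 fold change of -1.26 and Pfkl (the liver-type phosphofructokinase) of -2.14, and both fell. Pfkm and Pfkp, the muscle and platelet types, did not pass, and each overlaps another gene on the opposite strand (Senp1 and Pitrm1) whose reads cannot be told apart from theirs, since the strand setting of the counting is not stated. Pfkm had 705 counts over all libraries, against 3127 for Senp1. Neither glucose transporter passed: Slc2a1 had 13.8, 3.58, 8.78 and 5.91 CPM in HPCs and Slc2a3 had 10.8, 3.46, 2.56 and 8.58 CPM, and both overlapped the mesoderm values.

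In the HIF pathway, Egln1 fell from 3.08, 2.19 and 4.14 CPM in mesoderm to 0.773, 0.896, 0.197 and 0.583 CPM in HPCs (-2.40 ± 0.39, adjusted p = 0.00098 by edgeR). Epas1 fell from 3.37, 1.21 and 3.06 CPM to 1.37, 0.512, 0 and 0.167 CPM (-2.33 ± 0.66, adjusted p = 0.022 by edgeR), where HPC library B9.3 stood above the lowest mesoderm library. Epas1 is strongly expressed in endothelium, and summed endothelial markers over the same mesoderm libraries were 92.2, 3.04 and 12.01 CPM. Hif1a, the other HIF-alpha subunit, did not pass at 11.3, 6.8 and 6.12 CPM against 7.65, 5.38, 8.98 and 6.41 CPM, and its groups overlapped. Arnt was higher in all 4 HPC libraries (6.4 to 8.42 CPM) than in mesoderm (4.37 to 5.34 CPM), with an adjusted p of 0.03 by edgeR and a change under 2-fold (0.65 ± 0.20). Vhl and Egln3 did not pass. Of the other HIF targets, Ddit4, an inhibitor of mTORC1 signalling, fell by 2.20 on the log2 scale (adjusted p = 0.0088 by edgeR), while Bnip3 and P4ha1 (a collagen prolyl hydroxylase) did not pass. Ankrd37 and Adm were too low to be tested in any comparison.

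**Figure D3:**
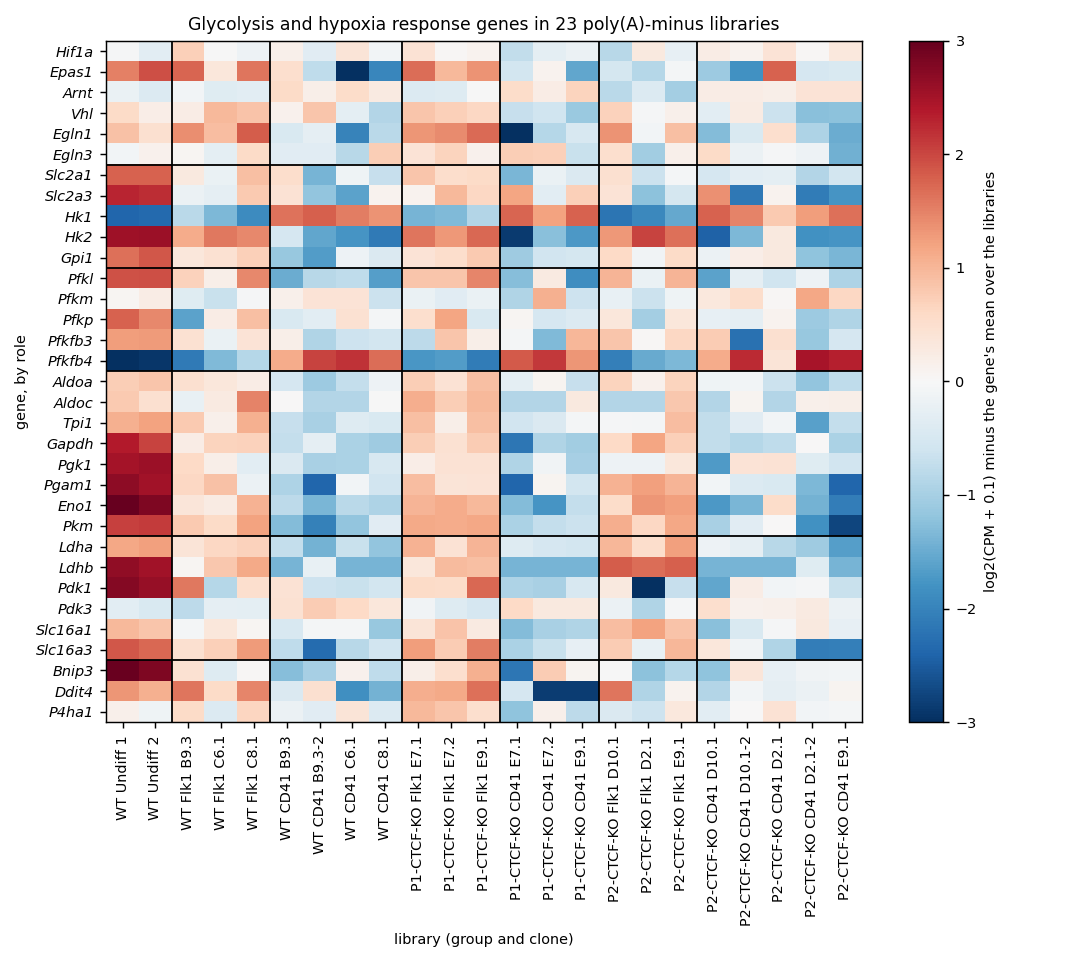
Heat map of 33 members (rows, grouped by role; Ankrd37 and Adm are left out as too low) in the 23 libraries (columns, grouped by genotype and stage; WT, wild-type). Color gives log2(CPM + 0.1) minus the gene's mean over the libraries, red above and blue below it. Hk1 and Pfkfb4 are low in the undifferentiated and mesoderm columns and high in all 12 HPC columns, opposite to Hk2 and most lower-pathway genes.

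The same step was measured separately in the knockout lines, each with its own mesoderm and HPC libraries. In P1-CTCF-KO, 2 of 28 tested members rose and 15 fell, against 16.6% and 16.1% of 9170 genes (32.6% in all). In P2-CTCF-KO, 3 rose and 11 fell, against 16.5% and 11.7% (28.2% in all). Of all genes called in P2-CTCF-KO 58.5% were higher, and 43.6% without HPC libraries D10.1 and D2.1. The median log2 fold change of the members was -1.27 in P1-CTCF-KO and -0.62 in P2-CTCF-KO, beside -0.07 and 0.09 over all genes. Unlike in the wild type, the median over all genes climbed with span. It went from -0.34 under 10 kb to 0.19 over 100 kb in P1-CTCF-KO, and from -0.35 to 0.44 in P2-CTCF-KO. The part of span in the members' values was not tested. Of the 28 members tested in all 3 genotypes, 2 rose in each (Hk1 and Pfkfb4) and 9 fell in each (Egln1, Hk2, Pfkl, Tpi1, Gapdh, Eno1, Pkm, Ldha and Slc16a3). No member rose in one genotype and fell in another, and 7 passed in none (Hif1a, Egln3, Slc2a3, Pfkm, Pfkp, Pfkfb3 and Pgk1). The share of all genes that passed in all 3 genotypes was not computed, so these counts have no background beside them.

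Hk1 went from 1.41, 1.48 and 2.03 CPM to 13.2, 8.95 and 13.4 CPM in P1-CTCF-KO (2.84 ± 0.30, adjusted p = 3.2e-06 by edgeR). In P2-CTCF-KO it went from 0.757, 0.938 and 1.26 CPM to 13.4, 10.9, 6.7, 9.3 and 12.3 CPM (3.38 ± 0.31, adjusted p = 6.5e-07 by edgeR). The groups did not overlap in either line. Hk2 fell from 11.2, 8.97 and 12 to 0.406, 1.45 and 1.01 CPM in P1-CTCF-KO (-3.39 ± 0.59, adjusted p = 0.00027 by edgeR). In P2-CTCF-KO it fell from 8.95, 14.9 and 11.4 to 0.582, 1.35, 4.4, 0.951 and 0.978 CPM (-2.77 ± 0.45, adjusted p = 0.00013 by edgeR). The value of 4.4 belongs to P2-CTCF-KO D2.1, the HPC library with the highest endothelial, mesoderm and pluripotency marker sums. The per-kb share of Hk1 in the pair was 73.3 to 93.5% in P1-CTCF-KO HPCs and 78.2 to 91.1% in P2-CTCF-KO HPCs other than D2.1, where it was 40.4%, against 2.7 to 7.0% in the mesoderm of both lines.

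Pfkfb4 rose from 0.704, 0.741 and 0.524 to 9.53, 11.6 and 6.59 CPM in P1-CTCF-KO (3.77 ± 0.51, adjusted p = 2.5e-05 by edgeR) and from 0.551, 0.844 and 0.962 to 5.72, 12.5, 3.42, 14.8 and 13.4 CPM in P2-CTCF-KO (3.63 ± 0.49, adjusted p = 2.6e-05 by edgeR). Its HPC levels varied more than those of Hk1. The 3 lowest of all 12 HPC libraries were P2-CTCF-KO D2.1 (3.42), wild-type B9.3 (5.67) and P2-CTCF-KO D10.1 (5.72). These are the same 3 libraries that held over 10 CPM of cardiac and smooth muscle markers and the 3 highest sums of mesoderm markers. The part of those markers in the level of Pfkfb4 was not tested, and the gene stood higher in these 3 libraries than in any mesoderm library. Erythroid markers summed to 29.7, 64.1 and 86.3 CPM in them and to 59.8 to 219 CPM in the other 9.

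Pkm fell from 26.8, 26.7 and 27.4 to 6.29, 7.38 and 7.73 CPM in P1-CTCF-KO (-1.93 ± 0.49, adjusted p = 0.0047 by edgeR) and from 26.0, 18.9 and 27.6 to 6.2, 9.61, 12.4, 3.38 and 1.74 CPM in P2-CTCF-KO (-1.87 ± 0.41, adjusted p = 0.0017 by edgeR). Ldha fell by 1.37 and 1.70, Gapdh by 1.98 and 1.54, and Eno1 by 2.37 and 1.93 on the log2 scale in the 2 lines. Of the HIF pathway, Egln1 went from 2.88, 3.09 and 3.8 to 0, 0.559 and 0.76 CPM in P1-CTCF-KO (-2.72 ± 0.63) and from 2.96, 1.03 and 2.15 to 0.388, 0.769, 1.6, 0.528 and 0.326 CPM in P2-CTCF-KO (-1.46 ± 0.49), where the groups overlapped. Pfkl had log2 fold changes of -1.75 and -1.43, Tpi1 of -1.07 and -1.02, and Slc16a3 of -1.88 and -1.34. Over all 9 mesoderm and 12 HPC libraries, Hk2, Aldoa, Tpi1, Gapdh, Pkm, Ldha and Ldhb were higher in every mesoderm library than in any HPC library, and Arnt, Hk1 and Pfkfb4 were lower in every one. The margin was narrow for Tpi1 (1.78 against 1.77 CPM) and for Ldhb (0.17 against 0.13 CPM). The share of all genes that separate in this way was not computed. Ldhb had 20 counts in P1-CTCF-KO mesoderm and 0 in HPCs, at least 2.56-fold lower against a floor of 3 counts over the group. It had 31 and 1 in P2-CTCF-KO, a ratio of levels of 43 with an interval of 7.17 to 1750.

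Some members passed in 1 or 2 genotypes. Slc16a1 fell in both knockouts, by 1.62 and 1.30 on the log2 scale, and not in the wild type. Gpi1 and Ddit4 fell in the wild type and in P1-CTCF-KO, where Gpi1 went from 4.7, 5.11 and 6.1 to 1.62, 2.35 and 2.41 CPM (-1.30 ± 0.42, adjusted p = 0.019 by edgeR). Ddit4 had 93 counts over the P1-CTCF-KO mesoderm libraries and 2 over the HPC libraries, a ratio of levels of 17.9 with an exact 95% interval of 4.81 to 150. In P1-CTCF-KO alone Slc2a1 fell from 17.2, 13.8 and 14.5 to 3.65, 8.39 and 7.1 CPM (-1.24 ± 0.40), Pdk1 from 2.47, 2.43 and 5.64 to 0.811, 0.783 and 1.14 CPM (-1.93 ± 0.71), and P4ha1 from 5.87, 5.31 and 4.2 to 1.22, 3.24 and 1.65 CPM (-1.29 ± 0.36). The groups did not overlap for any of these members in P1-CTCF-KO. Arnt (higher, 1.02 ± 0.18) and Aldoa (lower, -1.06 ± 0.25) passed in P2-CTCF-KO alone, and Pdk3 and Epas1 in the wild type alone. Arnt lies at the 2-fold limit and fell below it in 8 of 16 other settings, DESeq2 (0.95) and RLE size factors (0.94) among them. Ldhb was too low to be tested in the fit with the knockouts. Whether the change itself differed between genotypes was tested as an interaction. No member passed by edgeR for P1-CTCF-KO against the wild type (0% of 9170 genes) or for P2-CTCF-KO against the wild type (0.0218%, 2 genes). By DESeq2 no member passed either, beside 0 of all genes for P1-CTCF-KO and 37 for P2-CTCF-KO. At an unadjusted p under 0.05 there was 1 of 28 members in each, beside 3.34% and 7.01% of all genes: Slc16a1 in P1-CTCF-KO (difference of log2 fold changes -1.07 ± 0.46, adjusted p = 1 by edgeR) and Epas1 in P2-CTCF-KO (3.07 ± 1.13, adjusted p = 0.48 by edgeR). From mesoderm to HPCs, 6 of 6 tested endothelial markers rose in P2-CTCF-KO, while 2 of 6 fell in the wild type, and their part in the values of Epas1 was not tested.

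The counts in the knockouts rested in part on single libraries. Without HPC libraries D10.1 and D2.1, which held over 10 CPM of cardiac and smooth muscle markers, 17 members passed in P2-CTCF-KO. In that setting 2957 of all genes were called, against 2588 with all libraries. Without HPC library E7.1, 11 members passed in P1-CTCF-KO, beside 25.9% of all genes. Without mesoderm library D10.1 or E9.1, 9 and 8 passed in P2-CTCF-KO, beside 24.9% and 23.5% of all genes.

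**Figure D4:**
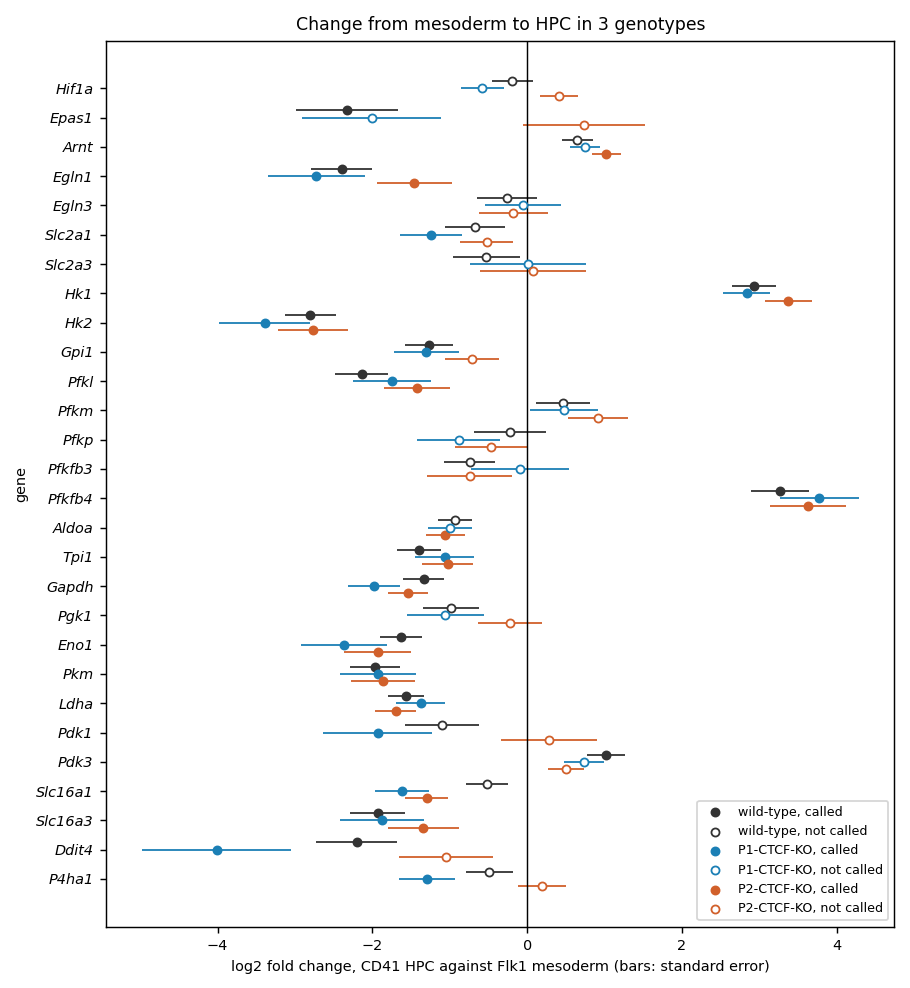
Log2 fold change from Flk1+ mesoderm to CD41+ HPCs (horizontal axis, bars 1 standard error) for the 28 members tested in all 3 genotypes (vertical axis), in wild-type (black), P1-CTCF-KO (blue) and P2-CTCF-KO (orange) cells. Filled points passed the test and open points did not. Hk1 and Pfkfb4 lie between 2.84 and 3.77 in all 3 genotypes and Hk2 between -3.39 and -2.77.

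Direct comparison of the genotypes at each stage found no member that passed. In mesoderm 30 members were tested. For P1-CTCF-KO against the wild type 0 passed (0% of 8778 genes), with none at an unadjusted p under 0.05 (1.91% of genes) and none by DESeq2, and log2 differences between -0.52 and 0.45. For P2-CTCF-KO 0 passed by edgeR (0.0342% of genes, 3 genes), with 2 at an unadjusted p under 0.05 (16% of genes). DESeq2 called 166 genes, 1 of them a member. That gene was Epas1, at 3.37, 1.21 and 3.06 CPM in wild-type mesoderm and 0.62, 0.469 and 0.888 CPM in P2-CTCF-KO mesoderm, with no overlap (-1.94 ± 0.41, adjusted p = 0.12 by edgeR). It also passed by edgeR with no filter on low counts and without wild-type mesoderm C6.1, where 431 and 127 of all genes were called. Summed endothelial markers moved with it, at 92.2, 3.04 and 12.01 CPM in the wild type against 0.757, 1.78 and 1.26 CPM in P2-CTCF-KO, and their part in the level of Epas1 was not tested. The second was Slc16a1, at 3.48, 4.62 and 3.78 CPM in the wild type and 7.02, 8.44 and 6.66 CPM in P2-CTCF-KO (0.93 ± 0.21, adjusted p = 0.13 by edgeR), again with no overlap. Hk1 in mesoderm was at 1.52 ± 0.60 CPM (SD, n = 3) in the wild type, 1.64 ± 0.34 (SD, n = 3) in P1-CTCF-KO and 0.985 ± 0.254 (SD, n = 3) in P2-CTCF-KO.

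In HPCs 24 members were tested and none passed in P1-CTCF-KO or in P2-CTCF-KO against the wild type (0% of 7422 genes in both), with none at an unadjusted p under 0.05 (3.5% and 1.95% of genes) and none by DESeq2. The log2 differences ran from -0.65 to 0.99 in P1-CTCF-KO and from -0.34 to 0.58 in P2-CTCF-KO. Hk1 in HPCs was at 11.7 ± 1.5 CPM (SD, n = 4) in the wild type, 11.9 ± 2.5 (SD, n = 3) in P1-CTCF-KO and 10.5 ± 2.6 (SD, n = 5) in P2-CTCF-KO, and Pfkfb4 at 9.25 ± 2.79, 9.25 ± 2.54 and 9.96 ± 5.05 CPM.

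Genes of the same pathways outside the list of 35 were counted from fixed lists. The counts stand against the shares over all genes given above for this step, 10.8% higher and 12.5% lower in the wild type, 16.6% and 16.1% in P1-CTCF-KO and 16.5% and 11.7% in P2-CTCF-KO. Of 20 other glycolytic isoenzymes, 8 were tested in the wild-type fit, where 2 rose, and 4 in the fit with the knockouts, where 2 rose and 1 fell in P1-CTCF-KO and 3 rose in P2-CTCF-KO. Pfkfb2, another enzyme of the family of Pfkfb4, rose from mesoderm to HPCs in all 3 genotypes, by 2.93 ± 0.32, 2.77 ± 0.36 and 2.56 ± 0.35 on the log2 scale in the wild type, in P1-CTCF-KO and in P2-CTCF-KO (adjusted p = 7.5e-05, 2e-05 and 2.7e-05 by edgeR). Bpgm, which makes the hemoglobin ligand 2,3-bisphosphoglycerate in red cells, rose by 1.42 ± 0.45, 1.88 ± 0.56 and 1.52 ± 0.50 (adjusted p = 0.036, 0.012 and 0.022 by edgeR). Adpgk, an ADP-dependent glucokinase, fell in P1-CTCF-KO (-1.17 ± 0.45, adjusted p = 0.047 by edgeR), and Pfkfb1 rose in P2-CTCF-KO (1.49 ± 0.41, adjusted p = 0.0081 by edgeR). All 7 pentose phosphate genes were tested: Rpia and Taldo1 rose in each genotype, by 2.23 to 3.19 and 1.75 to 2.39 on the log2 scale, and the other 5 passed in none of the 3 genotypes at this step. Of 25 genes of pyruvate oxidation and the TCA cycle, 3 of 25 tested rose in the wild type (Mpc1, Mpc2 and Pdk2), 1 of 22 rose in P1-CTCF-KO (Mpc1) and 1 of 22 fell in P2-CTCF-KO (Pdha1). Their median log2 fold changes were 0.19, -0.02 and -0.04, beside -1.44, -1.495 and -1.30 for the triose and lower glycolysis group. Of 22 HIF regulators and targets, 20 were tested in the wild type, where 3 rose and 4 fell, and 16 in the knockouts, where 4 and 3 moved in P1-CTCF-KO and 6 and 3 in P2-CTCF-KO. In each genotype Hif3a rose and Arnt2 fell. Tfrc, the transferrin receptor that brings iron into erythroid cells, rose by 2.58, 1.56 and 2.55 on the log2 scale.

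Levels per kb of gene span placed Aldoa, Slc2a3, Pkm and Gapdh first in undifferentiated cells, at 2.65, 2.57, 2.26 and 2.26 CPM per kb. In mesoderm Aldoa (1.97), Pkm (0.98), Tpi1 (0.866) and Ddit4 (0.782) were highest, and in HPCs Aldoa (1.03), Slc2a3 (0.426), Tpi1 (0.331) and Slc2a1 (0.281). Hk1 and Pfkfb4, both at 0.006 CPM per kb in undifferentiated cells, reached 0.106 and 0.227 CPM per kb in wild-type HPCs. The libraries overlap between Aldoa and Slc2a3 and between Pkm and Gapdh in undifferentiated cells, between Pkm, Tpi1 and Ddit4 in mesoderm, and between Slc2a3, Tpi1, Slc2a1 and Gapdh (0.280) in HPCs, so the order within these sets is not fixed.

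Chromatin accessibility was deposited as 1 list of ATAC-seq peaks a stage, called on merged libraries of E14-TG2a-derived cells (76766 peaks in Flk1+ mesoderm from 4 libraries and 29037 in HPCs from 2), with no replicate lists and no heights. A mesoderm peak lay within 1000 bp of the start of 33 of the 35 members (94.3%), against 55.2% of 24961 genes, expressed or not. An HPC peak lay there for 24 members (68.6%), against 37.1% of genes. All 24 also had the mesoderm peak, and 9 had the mesoderm peak alone: Vhl, Egln1, Pfkfb3, Aldoc, Pgam1, Pkm, Pdk3, Slc16a3 and Adm. For Pfkfb3 this holds only at the start given by the count table. At its other annotated starts 11423728 and 11422923 (GENCODE), HPC peaks were centred 66 and 91 bp upstream. Mesoderm peaks were centred 23 and 120 bp upstream of the same starts. Other starts were examined for Hk1, Hk2, Pfkfb3 and Pfkfb4 only. The HPC list is shorter throughout, so a peak missing from it is not by itself a loss. The share of all genes with the mesoderm peak alone was not computed, so the count of 9 has no background beside it.

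Peaks over the start were listed both for members that fell and for members that rose. Hk2, which fell, kept a peak over its start in both lists, chr6:82724375-82724683 in mesoderm and chr6:82724430-82724643 in HPCs, which both contain the whole promoter printed above. Pfkfb4, which rose, had peaks over its start in both, chr9:108893521-108894094 and chr9:108893615-108894057. Pdk3, which rose in the wild type, had its nearest HPC peak 73482 bp from its start. Hk1 and Hif1a had no peak of either list within 1000 bp. At Hk1 the nearest mesoderm peak lay 31189 bp from the start, outside the gene, and the nearest HPC peak 39552 bp into it. That HPC peak, chr10:61802945-61803104, is centred 99 bp upstream of another annotated transcript start (61802925, GENCODE), and a mesoderm peak, chr10:61802891-61803141, is centred 91 bp upstream of the same start. The promoter printed above belongs to the start given by the count table, and which start was used was not tested.

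CTCF peaks were deposited for 416B, a mouse myeloid progenitor cell line, and not for the cells above. Of 44513 peaks, 1 or more lay within 1000 bp of the start of 7 members (20.0%), against 12.8% of genes. They were Slc2a1, Gpi1, Pfkl, Pgk1, Pkm, Ddit4 and P4ha1, with the peak over the start itself in all but Pkm and Ddit4.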

How the data were processed

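The deposited table held whole-number read counts per gene for 23 libraries, which the authors made by aligning poly(A)-minus reads to mm9 with STAR, removing duplicates and counting exons and introns with featureCounts. The annotation and the strand setting of the counting are not given in the sources used here. The authors called ATAC-seq and CTCF peaks with MACS2 on merged libraries, and the scores in these deposited lists were not used.

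Tests on the counts used edgeR 4.0.16 under R 4.3.3 (TMM scaling, filterByExpr with a minimum count of 10, quasi-likelihood test, Benjamini-Hochberg adjustment over all genes tested). A gene passed where the log2 fold change was beyond 1 in size and the adjusted p below 0.05. Stages of the wild type were tested in the wild-type libraries alone, stages within knockouts and interactions in a fit of all differentiated libraries, and genotypes within each stage. DESeq2 1.42.0 and the other settings of the closing section were alternatives. CPM (counts-per-million) use library sizes scaled by TMM, since the share of ribosomal RNA differs, and CPM per kb divides by the gene span, and SE is the standard error of the log2 fold change. The p-values measure the spread between these libraries, some of which repeat a clone. Scripts were tested on simulated data. No replicate pair agreed within sampling noise.

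Clone names pair the stages, since the same cell line was used for both. Deviations from the group means of the same clone in both stages correlated at r = -0.067 to 0.177 over 9170 genes, and a fit with the clone as block was an alternative.

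Gene starts and promoter sequence follow the spans of the count table on the NCBIM37 (mm9) genome, with GENCODE annotation for exons and further transcript starts. Every member was accounted for, members that passed were named with library values or a log2 fold change, and other genes were named only from fixed lists. The members and lists were chosen with earlier results of these data known. The deleted CTCF motifs are no genes and cannot be checked in the counts. Libraries of the series' other assays were not analysed here beyond the peak lists.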

Additional observations from a re-analysis of the deposited data

Results flagged for a closer look

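In groups of 4 or 5 libraries, 4 of 48 groups tested (24 members) had 1 library far from the rest by Dixon's test, where chance gives about 1 in 20. Hk2 was at 4.4 CPM in P2-CTCF-KO HPC library D2.1 and at 0.58 to 1.35 CPM in the other 4. Eno1 was at 3.21 CPM in the same library and at 0.43 to 0.77 CPM in the others. This library also held the highest endothelial, mesoderm and pluripotency marker sums and the lowest erythroid sum of the HPC libraries. The part of these in both values was not tested. Gapdh was at 2.22 CPM in P2-CTCF-KO HPC library D2.1-2 against 1.09 to 1.26 CPM. Pdk1 was at 2.23 CPM in wild-type HPC library B9.3 against 0.99 to 1.08 CPM.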

How the results depend on the processing

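No direction reversed under any setting run. From undifferentiated cells to mesoderm 17 members passed. Under DESeq2, RLE size factors, no limit on the fold change, no low-count filter, removal of ribosomal and multi-locus entries and a fit of all 23 libraries, 12 to 18 passed. The share of all genes that passed in these settings was 20.7 to 27.2%, against 24.4% in the main fit. With the 2 undifferentiated libraries summed 5 passed, and with 1 library left out 4 to 15, beside 8.69% and 8.15 to 23% of all genes. Removing the filter moved the median log2 fold change of all genes in this comparison by -0.117. From mesoderm to HPCs, leaving out 1 library gave 15 to 19 in the wild type (16 with all), 11 to 18 in P1-CTCF-KO (17) and 8 to 15 in P2-CTCF-KO (14). Calls over all genes then numbered 2424 to 3176, 2537 to 2777 and 2263 to 3040, against 3007, 2994 and 2588 with all libraries. Leaving out the libraries with raised cardiac and smooth muscle markers, a setting chosen after seeing the data, gave 19 in the wild type and 17 in P2-CTCF-KO, and moved the median of all genes in P2-CTCF-KO by -0.118. Calls over all genes in that setting numbered 3176 in the wild type and 2957 in P2-CTCF-KO. Over all settings 4 of 17, 13 of 16, 11 of 17 and 8 of 14 members kept their call, in the order in which these comparisons are named above.

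With the clone as replicate block, 15, 17 and 12 members passed in the wild type, in P1-CTCF-KO and in P2-CTCF-KO, and 0 in both interactions. Calls over all genes numbered 2351, 2786 and 2453 for the 3 genotypes in the same order. The pairing moved no count by more than 1.5 times. For P2-CTCF-KO against wild-type mesoderm, 1 member (Epas1) passed under DESeq2 and 1 with no filter, and leaving out 1 library gave 0 to 1, with the 1 found without wild-type C6.1. Over all genes 166, 431 and 127 were called in these settings, in this order, against 3 by edgeR with all libraries and the filter. The cause was not tested. The other genotype comparisons and the interactions gave 0 under every setting run. Summing the libraries of a clone was not run for mesoderm, where each clone has 1 library. Counting only peaks that overlap the start gave 14 members for the HPC list, and peaks within 5 kb gave 20 for CTCF. Depth limits the HPC values most, where 35 members shared 476 to 1538 counts a library.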
